A study of Homo sapiens with 8 samples.

Results

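The 28 HOX cluster genes that had a probe set annotated with their symbol alone are described here beside TLX1, the homeobox oncogene of the leukemia line under study. They were taken from the 19775 genes that had at least 1 probe set annotated with a single symbol. A gene counted as a member when its symbol was HOX, a cluster letter from A to D and a number. The members held 44 probe sets, 15 genes had 1 and 13 had several, and each gene was represented by its brightest probe set by the mean of the 8 arrays. By cluster there was 1 HOXA gene, 10 HOXB genes, 9 HOXC genes and 8 HOXD genes. Other HOX genes were left out by this rule and were not analysed here, so the counts by cluster do not cover whole clusters.

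RNA of ALL-SIL, an established line of human T-cell acute lymphoblastic leukemia that carries high TLX1, was hybridised to 8 Affymetrix arrays in 4 groups of 2. In the TCR experiment the cells of both groups had been transduced with TCRα/β-GFP, which the protocols describe as a vector built from the Jurkat T-cell receptor (TCR). The same protocols also describe a murine TCR-HY vector and sorting for Vβ6 TCR or GFP, without saying which arrays these concern. The TCR_activation cells spent 48 h on OP9-DL1, stromal cells of mouse origin made to express a Notch ligand, and the no_TCR_activation cells had no co-culture. Cells of the no_TCR_activation group thus lacked the stroma as well as the activation. In the hairpin experiment the cells of both groups were selected in puromycin. The shRNA_TLX1 cells carried a hairpin against TLX1 from the MISSION TRC collection, and the shRNA_control cells carried the MISSION pLKO.1-puro control. All 8 arrays are labelled as 1 cell line, and the labels do not say that the replicates were separate cultures, so every p-value here rests on a spread between arrays that may be technical.

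HOX genes encode homeodomain transcription factors that lie in clusters and give embryonic tissues their position along the body axis, with genes at one end of a cluster acting toward the head and genes at the other end toward the tail. They bind DNA together with TALE-class cofactors of the PBX, MEIS and PKNOX families. MLL-type histone methyltransferases keep the clusters active and Polycomb complexes keep them silent. In blood formation several HOXA and HOXB genes are active in stem and progenitor cells and decline as cells mature. TLX1 is a homeobox gene outside these clusters. In T-cell leukemia it is switched on by translocation, and the leukemia cells resemble cortical thymocytes.

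The promoters of 3 genes are shown because the results turn on them. HOXD13 differed between the 2 groups of the TCR experiment. HOXC5 differed most between the experiments among the HOX genes read above the median throughout. TLX1 is the target of the hairpin. Each run gives 250 bases before to 50 bases after a transcript start, as the promoter table places it, 5′ to 3′ on the strand of the gene, from RefSeq on GRCh38.p14. Of the 28 members, 11 had an entry of this kind. Capitals mark matches on either strand to TAAT (the core bound by homeodomains), TGATNNAT (a HOX and PBX composite) or TATAAA (the TATA box).
HOXD13, chr2:176092471-176092770, plus strand: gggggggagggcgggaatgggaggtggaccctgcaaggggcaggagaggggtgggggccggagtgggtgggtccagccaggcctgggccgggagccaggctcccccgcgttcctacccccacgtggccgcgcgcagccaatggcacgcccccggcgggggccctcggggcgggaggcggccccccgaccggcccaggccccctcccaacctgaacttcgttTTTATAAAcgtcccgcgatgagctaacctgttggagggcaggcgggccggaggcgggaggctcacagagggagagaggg
HOXC5, chr12:54016638-54016937, plus strand: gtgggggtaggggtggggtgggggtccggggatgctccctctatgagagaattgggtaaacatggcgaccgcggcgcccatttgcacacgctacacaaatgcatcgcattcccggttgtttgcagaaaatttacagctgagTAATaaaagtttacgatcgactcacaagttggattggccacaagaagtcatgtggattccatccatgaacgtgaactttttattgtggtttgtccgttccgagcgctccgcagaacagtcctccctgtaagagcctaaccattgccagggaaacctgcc
TLX1, chr10:101131050-101131349, plus strand: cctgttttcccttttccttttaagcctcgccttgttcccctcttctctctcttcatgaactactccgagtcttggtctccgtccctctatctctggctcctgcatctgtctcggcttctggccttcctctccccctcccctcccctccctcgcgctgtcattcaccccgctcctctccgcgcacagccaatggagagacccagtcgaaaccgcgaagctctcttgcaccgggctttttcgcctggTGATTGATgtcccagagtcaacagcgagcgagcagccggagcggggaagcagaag
The HOXD13 window was 74.0% G and C with 24 CG dinucleotides, and it lies inside the annotated span of the gene, which begins farther upstream at base 176087487. Its capitals are overlapping TATAAA matches on both strands. It held 0 matches to TAAT and 0 to TGATNNAT. The HOXC5 window was 51.7% G and C with 15 CG dinucleotides and held 1 TAAT. HOXC4 had the same window. The annotated span of HOXC6 begins at the same base as those of HOXC4 and HOXC5, but HOXC6 had no promoter entry. The TLX1 window was 59.0% G and C with 18 CG dinucleotides and held 1 TGATNNAT. Over all 35116 promoters of this length, 50.2% held TAAT, 7.40% held TGATNNAT and 11.5% held TATAAA, and the medians were 58.7% G and C and 14 CG dinucleotides. These matches describe the letters of the windows only.

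The values are log2 probe set intensities, and each array's median over all probe sets lay between 5.29 and 5.30. That median is used as a common reference line and is not a detection call. Of the 28 HOX genes, 5 (17.9%) read above it in all 8 arrays, against 53.9% of all genes. These were HOXB4, HOXB5 and HOXB9 of the 10 HOXB genes and HOXC5 and HOXC11 of the 9 HOXC genes, with 0 of the 8 HOXD genes and not the 1 HOXA gene. At the other extreme 14 of the 28 (50.0%) read below it in every array, against 32.1% of all genes. The remaining 9 read above it in some arrays. No HOX gene lay a full log2 unit above the median in all 8 arrays.

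**Figure D1:**
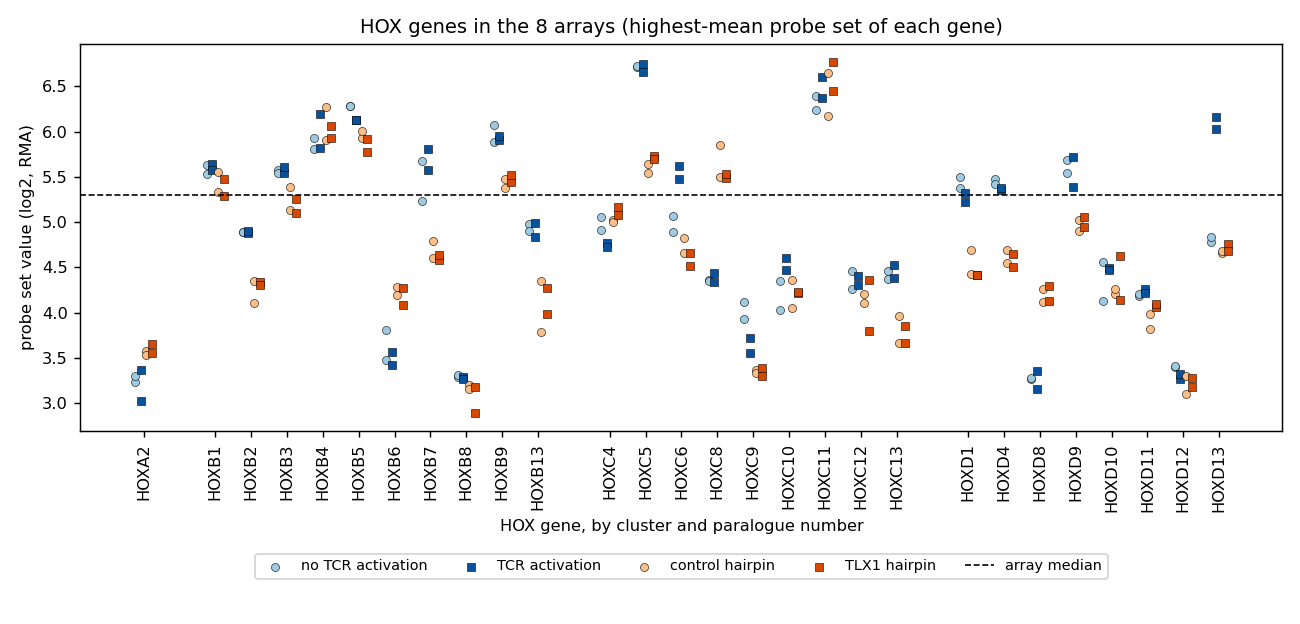
Log2 value (vertical axis) of each of the 28 HOX genes (horizontal axis, by cluster) in each of the 8 arrays. Each point is 1 array, colour and shape give the group, and the dashed line is the array median. HOXB4, HOXB5, HOXB9, HOXC5 and HOXC11 lie above the median in all 8 arrays, and HOXD13 lies above it in the 2 TCR_activation arrays alone.

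HOXB4, known for promoting self-renewal of blood stem cells, read 5.81 and 5.93 in no_TCR_activation, 6.19 and 5.82 in TCR_activation, 5.91 and 6.28 in shRNA_control, and 5.93 and 6.06 in shRNA_TLX1. The 2 groups of each experiment overlapped, and the highest array belonged to the control hairpin. HOXB5, which marks long-term blood stem cells in the mouse, read 6.28 and 6.28, then 6.12 and 6.13, in the TCR experiment. In the hairpin experiment it read 5.93 and 6.01, then 5.92 and 5.78, so all 4 hairpin arrays lay below all 4 TCR arrays. Its other probe set, 205600_x_at, lay between 6.04 and 6.26 in the TCR experiment, compared with between 4.86 and 5.12 in the hairpin experiment, where it was below the median. HOXB9, a posterior HOXB gene, read 5.88, 6.07, 5.91 and 5.95 in the TCR experiment, compared with 5.38, 5.48, 5.45 and 5.53 in the hairpin experiment. HOXB9 was the gene just inside the all-arrays line, 0.08 above the median at its lowest, and its other probe set was below the median in every array, between 4.20 and 5.04.

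HOXC5, a gene of the anterior part of the HOXC cluster, read 6.71, 6.72, 6.74 and 6.66 in the TCR experiment, compared with 5.54, 5.64, 5.73 and 5.69 in the hairpin experiment. Its values were tight within each experiment and did not overlap between them. HOXC11, a posterior HOXC gene, read 6.24 and 6.40, then 6.61 and 6.37, in the TCR experiment, compared with 6.18 and 6.65, then 6.45 and 6.77, in the hairpin experiment. The groups of HOXC11 overlapped, and the 2 shRNA_control arrays lay farther apart than any pair of group means. Both genes had 1 probe set, so no other probe set bears on them.

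HOXB1, a gene of hindbrain patterning, fell just outside the line: it was above the median in 7 of 8 arrays and 0.0092 below it in the other array, with values from 5.29 to 5.64. HOXB3 was above it in 5 arrays (5.10 to 5.61). HOXB7, which acts in axial patterning, was above it in 3 arrays of the TCR experiment (5.23 to 5.80) and in none of the hairpin experiment (4.58 to 4.79). HOXD4 (5.36 to 5.47) and HOXD9 (5.38 to 5.72) were above it in the 4 TCR arrays, and HOXD1 (5.23 to 5.50) in 3 of them. In the hairpin arrays these 3 HOXD genes lay between 4.42 and 5.06. HOXC8, a gene of the thoracic region, had the opposite pattern, below the median in the TCR arrays (4.34 to 4.44) and above it in the hairpin arrays (5.49 to 5.86). HOXC6 and HOXD13 were above the median in the 2 TCR_activation arrays alone.

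The 14 genes below the median throughout came from every cluster. HOXA2, which patterns the hindbrain and the second pharyngeal arch, read 3.02 to 3.65. Among HOXB genes, HOXB2 read 4.10 to 4.91, HOXB6 3.43 to 4.28, HOXB8 2.89 to 3.32 and HOXB13, known for its role in the prostate, 3.79 to 4.99. Among HOXC genes, HOXC4 read 4.72 to 5.17, HOXC9 3.30 to 4.12, HOXC10 4.03 to 4.60, HOXC12 3.79 to 4.46 and HOXC13, a regulator of hair keratins, 3.67 to 4.53. Among HOXD genes, HOXD8 read 3.15 to 4.29, HOXD10 4.12 to 4.62, HOXD11 3.82 to 4.26 and HOXD12 3.10 to 3.41. Of the 16 probe sets that did not represent their gene, which are the dimmer ones by the choice of the brightest, 15 were below the median in all arrays and 1 was mixed. Values of different probe sets depend on their own hybridisation, so their levels are not ranked against each other.

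TLX1 read 8.70 and 8.60 in no_TCR_activation and 8.69 and 8.57 in TCR_activation, far above the array median in each. It read 8.66 and 8.27 in shRNA_control and 7.98 and 7.88 in shRNA_TLX1. The other homeobox genes of T-cell leukemia were a list of 8 with TLX1 included. Of these 8, TLX1 and NKX2-5 read above the median in all 8 arrays and 3 read below it in every array. TLX3, the leukemia gene most like TLX1, lay between 3.50 and 3.91.

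In both experiments 8 of 8 T cell markers and 9 of 10 cortical thymocyte markers were above the median in every array, against 53.9% of all genes. So were 2 of 5 B cell markers, 5 of 15 stromal markers and 1 of 11 myeloid markers. Arrays of the same group correlated at 0.986 to 0.998 over all probe sets, arrays of the other group of the same experiment at 0.986 to 0.995, and arrays of different experiments at 0.942 to 0.951. The 3′ minus 5′ difference of the actin control probe sets was 2.30 to 2.71 log2 units in the TCR experiment, compared with 0.57 to 0.83 in the hairpin experiment, and that of GAPDH was 0.31 to 0.36 against -0.01 to 0.08. In the TCR experiment 6 genes of the Y chromosome passed the threshold with a median change of -4.37. They differ between the same 2 groups as HOXD13, as does every gene called in this comparison. Their part in the HOX values was not tested. Whether the 2 TCR groups hold the same cells was also not tested, and this bears on every difference between these groups given here, those of HOXD13 and the myeloid markers included.

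The first comparison asks which HOX genes differed between cells after 48 h on OP9-DL1 and cells kept without co-culture. Both groups had been transduced with TCRα/β-GFP. Of the 28 HOX genes, the 14 that read above the median in at least 2 arrays were tested, a filter that 66.1% of all genes passed. HOXD13 alone rose, 0 fell and 13 did not pass the threshold of 0.05 after Benjamini-Hochberg adjustment in limma. Over all genes tested the share called was 0.618% (81 of 13102), and 0.366% were called higher. HOXD13 entered the test only through the TCR_activation arrays, where it is high, so its count of 1 of 14 is a description. When all 28 were tested with no filter, HOXD13 was again the 1 that passed, against 0.571% of all genes. At an unadjusted p under 0.05, HOXD13 and HOXC6 were higher and 0 of the 14 were lower, against 7.42% of all genes in either direction. Both genes entered the test only through the TCR_activation arrays, where they are high. Without the filter, 3 of the 28 were higher and 2 were lower at that level. The 7.42% covers only genes that passed the filter, so these unfiltered counts have no share beside them and are a description.

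HOXD13, the most posterior gene of its cluster, patterns digits and the urogenital tract and is a partner of NUP98 in fusions of myeloid leukemia. Its representing probe set, 236681_at, read 4.78 and 4.83 in no_TCR_activation and 6.16 and 6.03 in TCR_activation. It read 4.65 and 4.68 in shRNA_control and 4.76 and 4.69 in shRNA_TLX1. The 2 TCR_activation arrays stood apart from the other 6, which all lay below the array median. The means were 4.81 ± 0.04 (SD, n = 2) and 6.10 ± 0.09 (SD, n = 2), a change of 1.29 log2 units (SE 0.10, 95% confidence interval 1.04 to 1.53) or 2.44-fold, with an adjusted p of 0.00149. The call was kept when any 1 of the 8 arrays was left out, with adjusted p values up to 0.0421. Where this left 1 array in a group, that array was assumed to vary like those of the other groups. The gene was not tested when a gene had to read above the median in all 8 arrays.

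The other probe sets of HOXD13 gave smaller differences. Probe set 207397_s_at read 3.10 and 3.27 in no_TCR_activation and 3.81 and 4.11 in TCR_activation, and 2.95 to 3.06 in the hairpin arrays. It was also highest in the 2 TCR_activation arrays, by 0.77 log2 units (95% confidence interval 0.47 to 1.08), with an adjusted p of 0.0657 when all 54675 probe sets were tested separately. Probe set 207398_at read 4.37 and 4.71, then 4.67 and 4.75, and its 2 groups overlapped. Its difference was 0.17 with an adjusted p of 1.00. When each probe set was tested separately, a choice made after the data were seen, 1 of the 44 HOX probe sets passed in this comparison, against 0.402% of all probe sets.

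**Figure D2:**
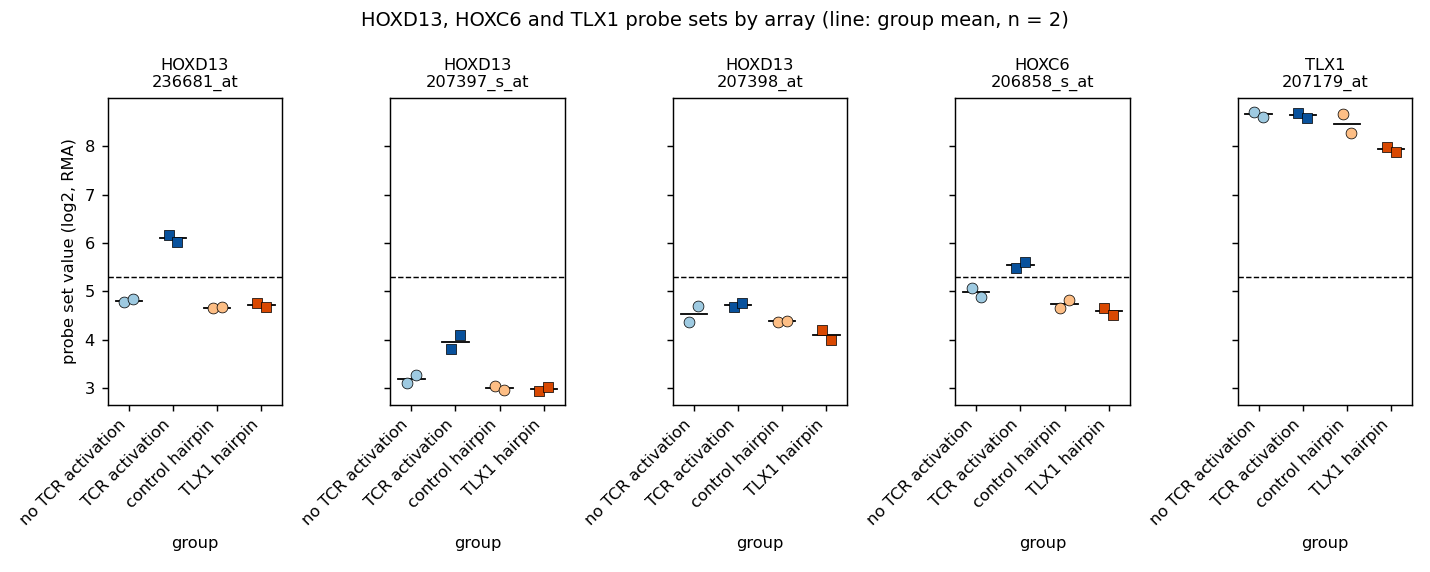
Log2 values of the 3 HOXD13 probe sets and of the HOXC6 and TLX1 probe sets, by group. Points are arrays, short lines are means of 2 arrays, and the dashed line is the array median. Probe sets 236681_at and 207397_s_at are highest in the 2 TCR_activation arrays, and 207398_at shows overlapping groups.

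The genes beside HOXD13 gave differences within 0.25 of 0. HOXD12 differed by -0.11, HOXD11 by 0.04 and HOXD10 by 0.14 between the same groups, all of them below the median and tested without the filter only. LNPK, which lies beyond HOXD13 outside the cluster, read 7.55 and 7.52 in no_TCR_activation and 7.72 and 7.82 in TCR_activation. MTX2, at the other end of the cluster, read 9.33 and 9.45, then 9.41 and 9.42. None of these genes passed the tests they entered.

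HOXC6, a gene whose product acts in thoracic patterning, had the next largest difference. It read 5.07 and 4.89 in no_TCR_activation and 5.48 and 5.62 in TCR_activation, with 4.52 to 4.83 in the hairpin arrays. The 2 groups of the TCR experiment did not overlap. The means were 4.98 ± 0.13 and 5.55 ± 0.10 (SD, n = 2 each), a difference of 0.57 (SE 0.13, 95% confidence interval 0.28 to 0.86) with an adjusted p of 0.167, which does not pass. Like HOXD13, it entered the test only through the TCR_activation arrays, where it is high. Without the filter its adjusted p was 0.157. It passed when only the 2 groups of this experiment were fitted (adjusted p = 0.0338) and when arrays were weighted (adjusted p = 0.00377). Those fits called 866 and 1350 genes in all, against 81 in the 4-group fit. The 4-group fit shares 1 spread among groups that differed in it. The median SD over tested genes was 0.064 in no_TCR_activation and 0.042 in TCR_activation. It was 0.174 in shRNA_control and 0.112 in shRNA_TLX1.

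The other HOX genes gave small differences. Those of 24 of the 28 genes lay within 0.25 log2 units of 0, and 26 lay within 0.5. The median over the 28 was -0.01, and over all genes it was 0.01 with 5th and 95th percentiles of -0.27 and 0.28. After HOXD13 and HOXC6 the largest positive values among tested genes were 0.24 for HOXB7, 0.17 for HOXC11 and 0.14 for HOXB4. The largest negative values were -0.16 for HOXD1, -0.15 for HOXB5 and -0.08 for HOXD4, and none of these 6 passed. HOXB7 rested on the first no_TCR_activation array, without which its difference was 0.011, and that of HOXC11 was 0.048 without the first TCR_activation array. Among genes too dim to be tested, HOXC10 differed by 0.35, HOXC9 by -0.39 and HOXC4 by -0.24. The 2 groups did not overlap for 10 of 28 HOX genes (35.7%), 4 higher and 6 lower, against 50.5% of all genes, 28.0% higher and 22.6% lower. HOXB5 is an example of a tight pair of groups, with 6.28 and 6.28 against 6.12 and 6.13.

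**Figure D3:**
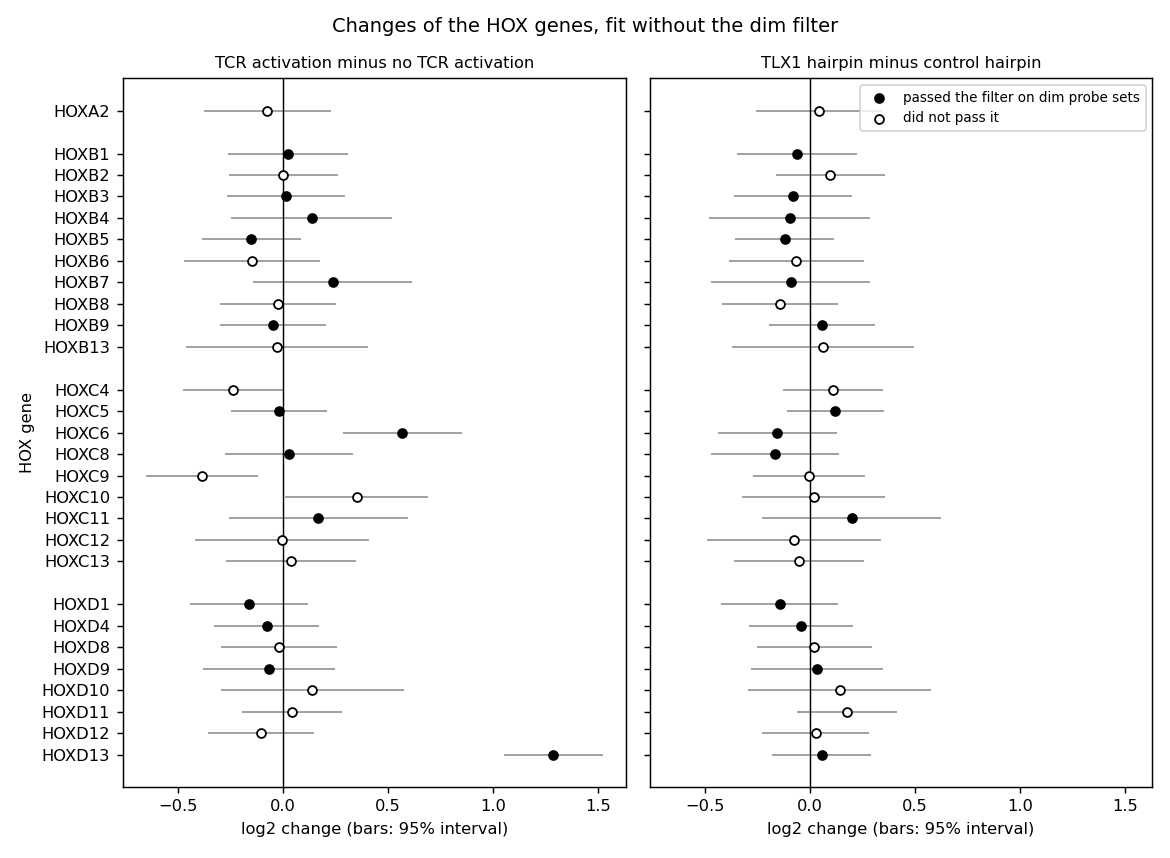
Log2 change (horizontal axis) of each of the 28 HOX genes (vertical axis) in both experiments, with 95% confidence intervals of the limma fit without a filter on dim genes. Filled points are genes that passed the filter. HOXD13 (1.29) stands apart in the TCR experiment, and the values of the hairpin experiment lie between -0.17 and 0.20.

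TLX1 itself differed by -0.02 in this comparison, and its 2 groups overlapped. Its sign turned without the first no_TCR_activation array (0.026) and without the second TCR_activation array (0.036).

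The second comparison asks which HOX genes differ when TLX1 is targeted by a hairpin. TLX1, the check of the hairpin, averaged 8.46 ± 0.28 in shRNA_control and 7.93 ± 0.07 in shRNA_TLX1 (SD, n = 2 each). Both shRNA_TLX1 arrays lay below both control arrays. The difference was -0.53 (SE 0.15, 95% confidence interval -0.88 to -0.19), and its adjusted p of 0.334 in limma does not pass. It was -0.34 without the first control array and -0.73 without the second, and neither passed (adjusted p = 0.0986 and 0.0690). RNA was sampled early, ahead of apoptosis, per the labels.

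Of the 14 HOX genes tested, 0 rose and 0 fell, against 0.0916% of all genes (12 of 13102). That total ranged from 0 to 1796 when 1 array was left out, the highest without the first control array, and the HOX count was 0 each time. At an unadjusted p under 0.05 the count was also 0 of 14, against 8.98% of all genes tested. It was 0 of 28 without the filter, a count with no share of all genes beside it. All 28 differences lay within 0.25 of 0, from -0.17 for HOXC8 to 0.20 for HOXC11, and 14 were above and 14 below 0. Their median was 0.01. Over all genes the median was 0.00, with 5th and 95th percentiles of -0.33 and 0.32. Groups did not overlap for 7 of 28 HOX genes (25.0%), 4 higher and 3 lower, against 29.6% of all genes, 14.6% higher and 15.0% lower.

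HOXC11 had the largest positive value, with 6.18 and 6.65 in shRNA_control against 6.45 and 6.77 in shRNA_TLX1. The difference of 0.20 had an adjusted p of 0.809, and its sign turned when the first control array was left out. HOXC5 followed with 0.12, where both shRNA_TLX1 arrays (5.73 and 5.69) lay above both control arrays (5.54 and 5.64). HOXB9 differed by 0.06. HOXC8 had the largest negative value: 5.50 and 5.86 in shRNA_control against 5.49 and 5.53 in shRNA_TLX1. It rested on the second control array, and without that array the difference was 0.014. HOXC6 differed by -0.16 and HOXD1 by -0.14. HOXB4 differed by -0.09 and HOXB5 by -0.12. HOXD13 differed by 0.06, with a 95% confidence interval of -0.19 to 0.30.

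Among the probe sets that did not represent their gene, 205366_s_at of HOXB6 differed by -0.46 (unadjusted p = 0.0468) and 238847_at of HOXD10 by 0.33 (unadjusted p = 0.0261) in limma. Neither passed after adjustment, and 0 of the 44 HOX probe sets did, against 0.0439% of all probe sets.

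The changes of the 2 experiments were then compared with each other in the same model. HOXD13 was the 1 HOX gene of 14 whose changes differed, against 0.382% of all genes (50 of 13102). The difference of its changes was 1.23 (SE 0.15, 95% confidence interval 0.89 to 1.57) with an adjusted p of 0.0182. Since HOXD13 entered the test only through the TCR_activation arrays, this count is a description too, and with no filter its adjusted p was 0.0170. Without any 1 array of the TCR experiment or of the shRNA_TLX1 group the adjusted p rose to between 0.0711 and 0.184, and the call was lost. It was also lost with the replicate number as a block (adjusted p = 0.0516) and with array weights (adjusted p = 0.0506). For HOXC6 the difference was 0.72 with an adjusted p of 0.240, and it passed without the first control array (adjusted p = 0.0380). For TLX1 the difference was 0.51 with an adjusted p of 0.546.

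Levels also differed between the 2 experiments, where vector, selection, RNA measures and any batch cannot be told apart, so the values are a description. For 20 of the 28 HOX genes (71.4%) the 4 hairpin arrays did not overlap the 4 TCR arrays, against 53.5% of all genes. The hairpin arrays were lower for 16 of these (57.1% of the 28, against 33.5% of all genes) and higher for 4 (against 20.0% of all genes), which were HOXA2, HOXB6, HOXC8 and HOXD8. The median difference, hairpin minus TCR, was -0.27 over the HOX genes and -0.11 over all genes. HOXC8 was higher in the hairpin experiment by 1.22 and HOXD8 by 0.94. HOXC5 differed by -1.06, HOXB7 by -0.92 and HOXD1 by -0.86. HOXC5 and HOXC8, of the same cluster, thus differed in opposite directions. For the genes named here these differences exceeded the changes within either experiment. The actin and GAPDH 3′ minus 5′ differences moved with the same split of arrays, and their part in it was not tested.

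The genes that work with or on HOX clusters gave no calls, on lists chosen with earlier results known. The unadjusted counts are at a p under 0.05, which 7.42% of all genes reached in the TCR experiment and 8.98% with the hairpin. Of the TALE cofactors with a probe set, 8 of 8 were tested, 7 read above the median in all 8 arrays, and 0 passed in either experiment (1 unadjusted with TCR activation, 0 with the hairpin). Their median change was -0.02 in the TCR experiment, compared with 0.00 in the hairpin experiment. PBX3, a PBX partner of HOX proteins, read 8.44 and 8.47 in no_TCR_activation and 7.95 and 7.98 in TCR_activation, and averaged 7.12 and 7.13 in the 2 hairpin groups. Its groups in the TCR experiment did not overlap, and the difference of -0.49 had an adjusted p of 0.207. It passed with only the 2 groups fitted (adjusted p = 0.0184), with array weights (adjusted p = 0.00210) and without either control hairpin array (adjusted p = 0.0447). MEIS1, the cofactor of HOX proteins in leukemia, was uneven within groups: 4.73 and 6.33, then 5.37 and 4.36, in the TCR experiment, compared with 2.86 to 3.26 in the hairpin experiment. The stromal collagen gene COL3A1 read 6.18 and 7.78, then 7.54 and 6.01, in the same TCR arrays. It lay between 3.32 and 3.65 in the hairpin arrays. Both were higher in the second no_TCR_activation array and the first TCR_activation array than in their partners. COL3A1 was picked outside the naming rule given below, and the stromal list was mixed. COL1A1, COL1A2 and FN1, for example, ran the same way, and DCN and PDGFRB did not. A link of MEIS1 to stromal RNA was not tested. In the hairpin experiment PKNOX1 differed by -0.22 and MEIS3 by 0.23, and neither passed.

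Of the MLL complex and other HOX activators, 19 of 19 were tested and read above the median in all 8 arrays, and 0 passed in either experiment (0 unadjusted in both). The smallest p values belonged to AFF4 in the TCR experiment (-0.26, adjusted p = 0.708) and WDR5 in the hairpin experiment (-0.20, adjusted p = 0.635). Of the Polycomb repressors, all 15 with a probe set were tested and above the median throughout, and 0 passed in either experiment (0 unadjusted with TCR activation, 1 with the hairpin, EZH1). In the hairpin experiment EZH1, a catalytic subunit of PRC2, differed by -0.32 (adjusted p = 0.502) and SUZ12, its core partner, by 0.26 (adjusted p = 0.608). The listed activators and repressors with a probe set were therefore all above the median in every array, as were 53.9% of all genes.

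The noncoding RNAs of the clusters were mostly dim, like the HOX genes. Of 11 with a probe set, 7 were below the median in every array, 1 (HAGLROS) was above it in all and 3 were tested, with 0 passing in either experiment (0 unadjusted in both). HAGLR, a noncoding RNA of the HOXD cluster, read 6.34, 6.44, 6.48 and 6.22 in the TCR arrays. It read 4.47, 4.54, 4.23 and 4.68 in the hairpin arrays, lower on the same side as HOXD1, HOXD4, HOXD9, HOXD11 and HOXD13. HOXD8 was higher in the hairpin arrays, and HOXD10 and HOXD12 overlapped. The noncoding RNAs went both ways: HOTTIP and HOXA-AS2, for example, were higher in the hairpin arrays, and HOXB-AS1 and HOXD-AS2 were lower. Of 11 genes that flank the clusters, 9 were tested and 0 passed in either experiment (0 unadjusted in both). SKAP2 differed by 0.27 in the TCR experiment and SMUG1 by -0.17 in the hairpin experiment. Among the homeobox genes of T-cell leukemia, 5 of 8 were tested and 0 passed in either experiment (1 unadjusted in each, MNX1 with TCR activation and TLX1 with the hairpin). MNX1 differed by 0.34 in the TCR experiment (adjusted p = 0.603) and passed with array weights (adjusted p = 0.0227), but it too was tested only through the TCR_activation arrays. HHEX, a homeobox gene of early blood cells, read 3.62 and 3.57 in no_TCR_activation and 4.50 and 4.52 in TCR_activation. It was below the median in every array and so not tested, and without the filter its difference of 0.91 had an adjusted p of 0.0279.

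**Figure D4:**
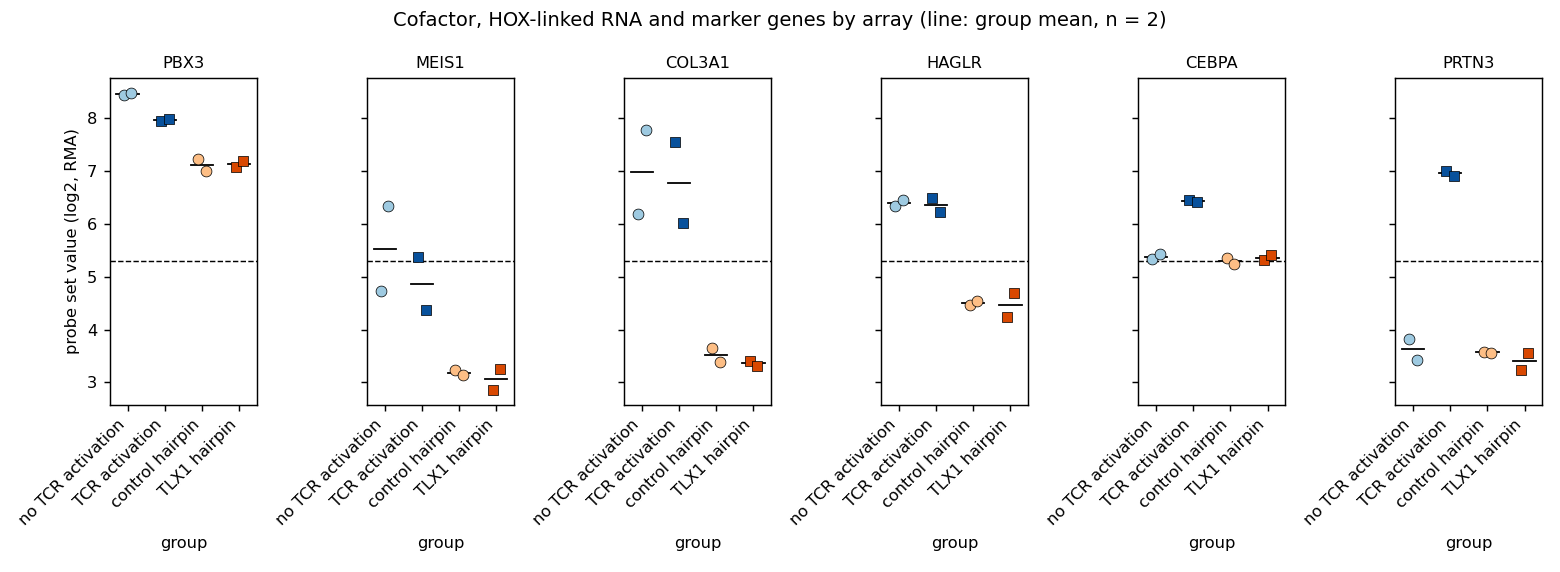
Log2 values of PBX3, MEIS1, COL3A1, HAGLR, CEBPA and PRTN3 by group. Points are arrays, short lines are means of 2 arrays, and the dashed line is the array median. PBX3 and HAGLR are higher in the TCR experiment than in the hairpin experiment, and MEIS1 is uneven within the groups of the TCR experiment.

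Markers of other cell types were read beside the HOXD13 result. Of 11 myeloid markers with a probe set, 6 were tested and 3 rose in the TCR experiment, while 0 fell, against the 0.618% of all genes called. They were PRTN3, a neutrophil granule protease, by 3.33 (adjusted p = 0.000143), CEBPA, a myeloid transcription factor, by 1.05 (adjusted p = 0.00510) and CEBPE, a factor of granulocyte maturation, by 0.81 (adjusted p = 0.0369). PRTN3 and CEBPE would not have been tested without the TCR_activation arrays, where they are high, so the count of 3 is a description. CEBPA lost its call without any 1 array of the TCR experiment (adjusted p 0.0681 to 0.120), as did CEBPE (adjusted p 0.214 to 0.468). CEBPE also lost it without either shRNA_TLX1 array (adjusted p = 0.0759), with the replicate block (adjusted p = 0.0943) and with the TCR pairs crossed in that block (adjusted p = 0.0727). ELANE, AZU1, LYZ, CD14 and SPI1 were below the median in every array, and MPO was above it in all, with 8.69 and 8.69 in no_TCR_activation and 7.82 and 8.13 in TCR_activation. PRTN3 averaged 3.63 in no_TCR_activation and 6.95 in TCR_activation (n = 2 each). The summed signal of the list, as log2, was 9.41 and 9.41 in no_TCR_activation, 9.42 and 9.51 in TCR_activation and 8.82 to 9.03 in the hairpin arrays. A sum of linear values follows its brightest genes. Here MPO was lower in TCR_activation while PRTN3 was higher, so the sum does not measure myeloid content. Of 15 stromal markers, 9 were tested and 0 passed in either experiment (1 unadjusted in each), and 6 were below the median throughout. Their summed signal was 12.27 and 12.55 in no_TCR_activation and 12.64 and 12.56 in TCR_activation, with 11.45 to 12.66 in the hairpin arrays. Of 5 B cell markers with a probe set, 4 were tested and 0 passed in either experiment (0 unadjusted with TCR activation, 1 with the hairpin). The part of these markers in the HOXD13 difference was not tested, and in such bulk RNA a rise in a share of the cells and a rise in every cell cannot be told apart.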

How the data were processed

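Gene expression was read from the deposited table of 8 arrays, whose log2 values came from the authors. The submitters' processing notes name RMA, affy and R 2.9.0. The array medians agree within 0.01, so a shift common to a whole array cannot be seen. Precision is limited by the 2 arrays of each group. Gene symbols came from the platform annotation, and 41097 of 54675 probe sets had 1 symbol.

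A probe set was kept when it lay above its array's median in at least 2 of 8 arrays. A gene was its highest-mean kept probe set, which gave 13102 genes. The 4 groups were fitted together in limma 3.58.1 (R 4.3.3, lmFit and eBayes with defaults), and p-values were adjusted by Benjamini-Hochberg over all genes and called under 0.05, with 4 residual degrees of freedom. An exact permutation test of 2 against 2 arrays cannot go below 0.333. Named genes were TLX1, the HOX genes above the median in all arrays or past the threshold, the 3 largest rises and falls, those nearest the line, and up to 3 genes of smallest p per companion list. Members and lists were chosen with earlier results of these data known. The fit was tested on simulated data in which a gene had the same spread in every group, unlike the arrays. Of 50 genes changed by 1 log2 unit, it recovered 37 in the TCR comparison and 32 in the hairpin comparison. Of 50 changed by 2 log2 units, it recovered 47 and 46. False calls numbered 4 and 1. The main fit did not use replicate numbers to pair the samples. Alternatives were other filters, probe set rules, fits and normalization, and leaving out each array.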

Additional observations from a re-analysis of the deposited data

Results flagged for a closer look

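HOXD13 is listed because its change in the TCR experiment and its change in the hairpin experiment differed when the difference of the 2 changes was itself tested. The difference was 1.23 log2 units with an adjusted p of 0.0182 in limma. The gene passed the filter on dim genes only through the 2 TCR_activation arrays, where it is high, and with no filter the adjusted p was 0.0170. HOXD13 was higher in 2 of 2 TCR_activation arrays than in both arrays without co-culture, and its 4 hairpin arrays lay between 4.65 and 4.76. The call depended on each array of the TCR experiment and of the shRNA_TLX1 group, and it was lost without any 1 of them.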

How the results depend on the processing

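The count of 5 HOX genes above the median in all 8 arrays became 0 when a full log2 unit above the median was required and 10 when at least 4 of 8 arrays sufficed. It was 4 with the mean of all probe sets, which leaves out HOXB9, and 5 when any probe set could count. In the TCR experiment the count of 1 became 0 when genes had to read above the median in all 8 arrays, since HOXD13 was then not among the 5 HOX genes tested. It was 2 with only the 2 groups fitted and 2 with array weights, HOXC6 being the addition, and 1 to 1 when any 1 array was left out. In the hairpin experiment the count was 0 under every alternative run. For the difference of changes the count of 1 became 0 with the filter on all 8 arrays, 0 with the replicate block and 0 with array weights, and it ranged from 0 to 2 when 1 array was left out. The cause was not tested.

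The sign of a small change turned for some genes when 1 array was left out, and none of these values passed the threshold. In the TCR experiment the ranges were -0.049 to 0.32 for HOXB4, -0.14 to 0.046 for HOXB9, -0.062 to 0.026 for HOXC5, -1.47 to 0.13 for MEIS1 and -0.084 to 0.036 for TLX1. In the hairpin experiment they were -0.28 to 0.088 for HOXB4, -0.038 to 0.44 for HOXC11 and -0.35 to 0.014 for HOXC8.

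Over all genes, the 81 calls of the TCR experiment became 12 with the filter on all 8 arrays, 866 with 2 groups, 1350 with array weights and 29 to 217 when 1 array was left out. The 12 calls of the hairpin experiment became 6, 0 and 1 under the first 3 of these and 0 to 1796 when 1 array was left out, the highest without the first control array. The 50 calls of the difference became 1 with the filter on all 8 arrays and 14 to 908 when 1 array was left out.

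Same-numbered arrays had deviations that correlated at r = -0.14 for the TCR pairs and 0.35 for the hairpin pairs over 13102 genes. The main fit did not pair the arrays by number, also in the hairpin experiment, where the correlation was positive. With the replicate block the HOX counts were 1, 0 and 0 for the TCR experiment, the hairpin experiment and the difference. With the TCR pairs crossed, an alternative chosen after seeing the data, they were 1, 0 and 1.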
